A study of Mus musculus with 4 samples.

Results

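The genes described here are those of MHC class I and class II antigen presentation, 10 of the 32288 features in a single-cell count table of sorted EYFP+ cells from injured mouse pancreas. They were chosen by name: 6 belong to class I (B2m, H2-K1, H2-D1, Tap1, Tapbp and Psmb8) and 4 to class II (Cd74, H2-Aa, H2-Ab1 and Ciita). Each was read by mouse across the deposited cell types of 13362 cells, with the 7778 sorted cells that carry no deposited type as a background. All 4 mice carried Ptf1aCre-ERTM, a tamoxifen-inducible Cre driven by the acinar gene Ptf1a, together with a ROSAYFP/+ reporter. They were backcrossed into CD-1, an outbred stock, and were 10 weeks old when injury began. Tamoxifen given by gavage in corn oil first labelled acinar cells, which make and secrete digestive enzymes. Caerulein, a cholecystokinin analogue that provokes pancreatitis, was then injected intraperitoneally for 2 weeks in 2 mice and for 4 weeks in the other 2. EYFP+ cells were sorted with DAPI to exclude dead cells and captured for droplet 3′ RNA sequencing. Every mouse received tamoxifen and caerulein, and uninjured pancreas was not analysed here.

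MHC class I molecules sit on nearly all nucleated cells and show peptides from the cell's own proteins to CD8 T cells. The heavy chain (H2-K1 or H2-D1) pairs with beta-2 microglobulin (B2m), while the immunoproteasome subunit Psmb8 helps to cut the peptides, the transporter subunit Tap1 moves them into the endoplasmic reticulum, and tapasin (Tapbp) helps to load them. MHC class II, by contrast, is typical of dendritic cells, macrophages and B cells. H2-Aa and H2-Ab1 are the chains of the I-A molecule, Cd74 is the invariant chain that escorts them, and Ciita is the coactivator that switches class II genes on. Epithelial cells can also acquire class II, classically after exposure to interferon gamma.

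The typed cells numbered 2814 to 3974 per mouse and held 60224505 to 90547790 unique molecular identifiers (UMIs) per mouse, with median depths per cell of 13464 to 20807. Levels are CPM, the count scaled to 1000000 UMIs, of the UMIs summed over the cells of a type in a mouse. Unless stated otherwise, 4 values in a row stand for 2-week mouse 1, 2-week mouse 2, 4-week mouse 1 and 4-week mouse 2. Most labels matched defining markers: 7 acinar markers summed to 267982 to 336345 CPM in Acinar cells, 9 mucin and ductal markers to 26178.8 to 68222.4 CPM in MucinDuctal cells, 6 tuft markers to 4356.86 to 4950.07 CPM in Tuft cells, and 10 enteroendocrine or islet markers to 50379.9 to 181169 CPM in EEC (enteroendocrine) cells. Ductal-like cells were mixed: their mucin and ductal markers stood at 26938, 25754, 24485 and 26520 CPM, beside acinar markers at 12679, 14378, 70465 and 16264 CPM, enteroendocrine markers at 103 to 8338 CPM and pericyte markers at 239 to 454 CPM (at most 29.3 in any other type). Enteroendocrine markers also stood at 358 to 5694 CPM in Acinar/MucinDuctal and 86.5 to 5316 CPM in Tuft cells. Acinar markers reached 13066 to 51419 CPM in Tuft/EEC.Progenitor cells. Among the cells with no deposited type, clustering gave 1507 macrophage-like, 448 dendritic cell-like, 550 B cell-like, 568 T cell-like, 577 fibroblast-like and 111 mesothelial-like cells, so the sort held more than acinar descendants. Of 21068 cell barcodes, 67 occurred in more than 1 mouse (23 among the 13338 typed barcodes).

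Class I RNA was present in all 7 types with at least 20 cells in each mouse, and differed between them by 5.44-fold to 13.6-fold within a mouse. The 6 class I members summed to 584, 221, 206 and 358 CPM in Acinar cells. In MucinDuctal cells, which express mucin and duct genes after injury, they summed to 1925, 675, 1237 and 1342 CPM. On this scale both acinar types sat at the bottom in every mouse, and the values of MucinDuctal cells did not overlap with them. Ductal-like cells, a small type of 139 cells, reached 4897, 1202, 1914 and 3531 CPM. In Tuft cells, a chemosensory epithelial type, the sum was 2725, 1121, 2323 and 3051 CPM. Ductal-like cells lay above Tuft cells in 3 of 4 mice, so the order of these 2 types was not settled by the spread between mice. Means over 4 mice (± SD) then ran from Ductal-like (2886 ± 1657) through Tuft (2305 ± 844), MucinDuctal (1294 ± 512), EEC (1210 ± 534) and Acinar/MucinDuctal cells (883 ± 331) to Acinar (342 ± 175) and Acinar.Prolif cells (310 ± 81.0). Apart from the Ductal-like and Tuft pair, each neighbour held its place in 4 of 4 mice down to Acinar cells, which exceeded Acinar.Prolif cells in 1 of 4. Acinar cells spend 55.3% of their UMIs on digestive enzymes, which lowers the CPM of every other gene; with those enzymes taken out of the total, the class I sum of Acinar cells was 763 CPM and that of Acinar/MucinDuctal cells, treated alike, 1185 CPM. As UMIs per cell, H2-D1 averaged 4.04 in Acinar, 9.71 in MucinDuctal and 28.5 in Tuft cells, and B2m 3.55, 6.50 and 3.79. Per cell the lower end was ordered otherwise: the class I sum was 20.0, 6.58, 7.07 and 14.3 UMIs in Acinar and 14.4, 13.3, 6.09 and 6.44 in Acinar/MucinDuctal cells, higher in Acinar cells in 3 of 4 mice. B2m averaged 2.65 UMIs in Acinar/MucinDuctal and 1.89 in EEC cells, both under Acinar cells. No test was made between types, because the deposited types were defined on these same counts.

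**Figure D1:**
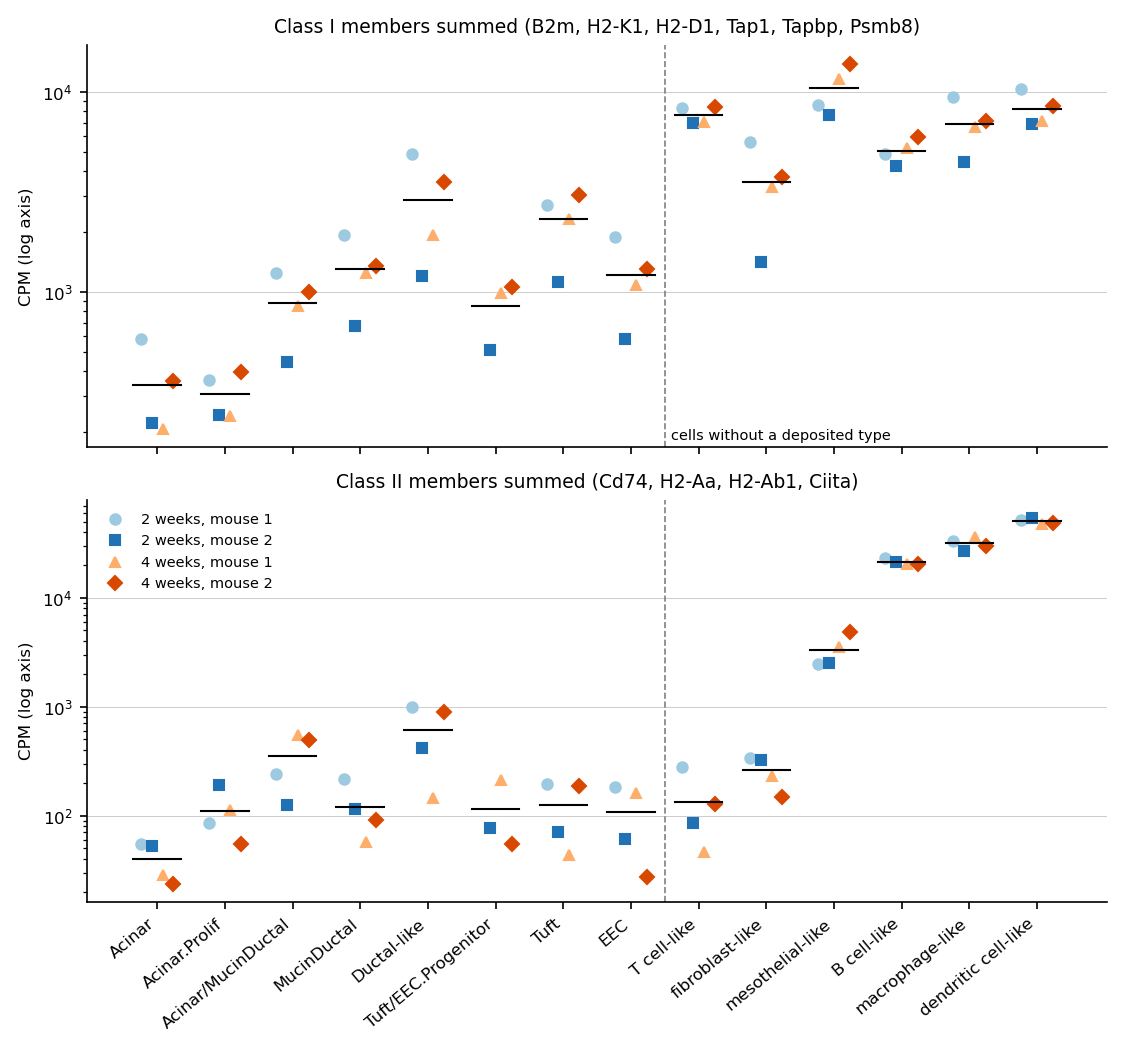
Summed class I (6 genes) and class II (4 genes) level in CPM on a log axis, by deposited cell type and by class of cells without a type; each point is a mouse and each bar the mean. Class I is spread over 5.44-fold to 13.6-fold among the 7 tested types, whereas class II in those types reaches at most 989 CPM and the macrophage-, dendritic cell- and B cell-like classes hold 20445 CPM or more.

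The heavy chains H2-K1 and H2-D1 are encoded at opposite ends of the mouse MHC on chromosome 17, with H2-K1 at 33996012 to 34000619 and H2-D1 at 35263094 to 35267497 (GRCm38.p6). Their promoters are shown because the 2 genes carry nearly the same control region and yet differed in level between cell types. The B2m promoter stands beside them as their common partner, and that of H2-Aa as a class II gene. The windows are from RefSeq on GRCm38.p6 and run from 250 bases before to 50 after the start site, read along the gene's own strand. Capitals mark the palindromic 11-base kappa B site, the 10-base core of the interferon-stimulated response element (ISRE) and the CRE-like core TGACG, which is also the core of the class II X2 box, each searched on both strands. H2-K1 lies on the minus strand at chr17:34000284-34000583, H2-D1 on the plus strand at chr17:35262844-35263143, B2m on the plus strand at chr2:122147437-122147736 and H2-Aa on the minus strand at chr17:34287774-34288073.
H2-K1: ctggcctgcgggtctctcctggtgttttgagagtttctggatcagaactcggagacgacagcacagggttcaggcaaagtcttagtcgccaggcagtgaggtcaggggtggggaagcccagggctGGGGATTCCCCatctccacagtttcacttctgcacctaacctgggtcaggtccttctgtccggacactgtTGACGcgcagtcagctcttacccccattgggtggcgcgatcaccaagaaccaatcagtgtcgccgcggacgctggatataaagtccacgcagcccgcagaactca
H2-D1: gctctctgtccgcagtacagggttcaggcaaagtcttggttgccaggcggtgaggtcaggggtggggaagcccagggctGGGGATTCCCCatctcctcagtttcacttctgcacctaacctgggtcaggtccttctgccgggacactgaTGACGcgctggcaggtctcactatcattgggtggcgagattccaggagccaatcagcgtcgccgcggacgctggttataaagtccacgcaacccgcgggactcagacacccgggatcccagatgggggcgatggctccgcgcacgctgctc
B2m: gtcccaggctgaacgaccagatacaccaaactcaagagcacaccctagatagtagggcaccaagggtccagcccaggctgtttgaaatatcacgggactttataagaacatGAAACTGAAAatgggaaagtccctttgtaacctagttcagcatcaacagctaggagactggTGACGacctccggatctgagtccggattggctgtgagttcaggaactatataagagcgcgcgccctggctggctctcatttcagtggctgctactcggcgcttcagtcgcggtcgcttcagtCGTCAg
H2-Aa: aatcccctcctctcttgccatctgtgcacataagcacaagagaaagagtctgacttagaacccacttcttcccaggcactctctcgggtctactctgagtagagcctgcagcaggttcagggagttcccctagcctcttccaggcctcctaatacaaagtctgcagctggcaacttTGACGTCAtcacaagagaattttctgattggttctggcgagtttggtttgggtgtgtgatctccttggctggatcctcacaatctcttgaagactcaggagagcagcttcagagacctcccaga

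In these windows H2-K1 and H2-D1 were identical at 222 of 254 aligned bases (87.4%). Each held the kappa B palindrome once, at positions -125 to -115 in H2-K1 and -171 to -161 in H2-D1 counted from the start site. That motif occurred in 10 of 32851 promoters of the same length (0.0304%), which belong to 9 genes, and 3 of the 9 are class I heavy chains (H2-K1, H2-D1 and H2-Q6). B2m held the ISRE core at -139 to -130, a motif found in 3.44% of all promoters. H2-Aa held a palindromic pair of TGACG matches from -74 to -67, where TGACG alone occurs in 20.8% of promoters. A match is a description of letters and not a measured binding site. The promoter set used held entries for 7 of the 10 members and lacked H2-Ab1, Cd74 and Ciita.

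H2-D1 and H2-K1 parted in Tuft cells. H2-D1 stood at 1821, 786, 1600 and 2177 CPM there, and H2-K1 at 451, 129, 406 and 522 CPM. For H2-D1 the Tuft level exceeded that of each of the other 6 types in 4 of 4 mice, while H2-K1 was highest in Ductal-like cells (1780, 391, 779 and 1413 CPM). The ratio of H2-D1 to H2-K1 UMIs in Tuft cells was 4.04, 6.10, 3.94 and 4.17, a mean of 4.56 ± 1.03 (SD, n = 4). EEC cells came second in each mouse at 2.25, 1.73, 2.51 and 2.49, and the Tuft ratio exceeded theirs by 1.57-fold to 3.52-fold. The ranges of Tuft and EEC cells did not overlap, and the ratio in Acinar, Acinar.Prolif, Acinar/MucinDuctal, MucinDuctal and Ductal-like cells lay between 0.80 and 1.49. Capture efficiency can differ between genes, so the ratio is compared between types and is not read as a true proportion of proteins.

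All 3 deposited tuft subtypes had a high ratio. Tuft-2 cells gave 3.92, 6.58, 3.52 and 4.08 and Tuft-3 cells 4.46, 6.83, 4.70 and 4.49. Tuft-1 cells, present in sufficient number in 2 mice, gave 3.76 in 2-week mouse 2 and 3.33 in 4-week mouse 2. Some EEC subtypes came close at 4 weeks, with Epsilon (Ghrl+) cells at 3.003 and 3.08 and Delta (Sst+) cells at 2.47 and 3.48, the last above Tuft-1 of that mouse. Tuft-like cells without a deposited type gave 3.18 in 2-week mouse 2 and 1.076 in 4-week mouse 1. The level of H2-D1 itself was lowest in Tuft-1 in both of those mice. It stood at 344, 734 and 1314 CPM in subtypes 1, 2 and 3 of 2-week mouse 2, and at 878, 1904 and 2641 CPM in those of 4-week mouse 2. Tuft/EEC.Progenitor cells, measured in 3 mice, had ratios of 1.54, 1.56 and 1.89, nearer to the acinar and mucin types than to Tuft cells. H2-T23, which encodes the non-classical heavy chain Qa-1, also stood high against H2-K1 in Tuft cells, at 0.399, 0.352, 0.322 and 0.272 UMIs per H2-K1 UMI. In any other of the 7 tested types it was at most 0.153. In the last 500 bases of the transcripts, where 3′ reads fall, 0 of 441 60-base words of H2-K1 and 22 of 441 words of H2-D1 (4.99%) occurred in another gene, and none of the words was shared between the 2.

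**Figure D2:**
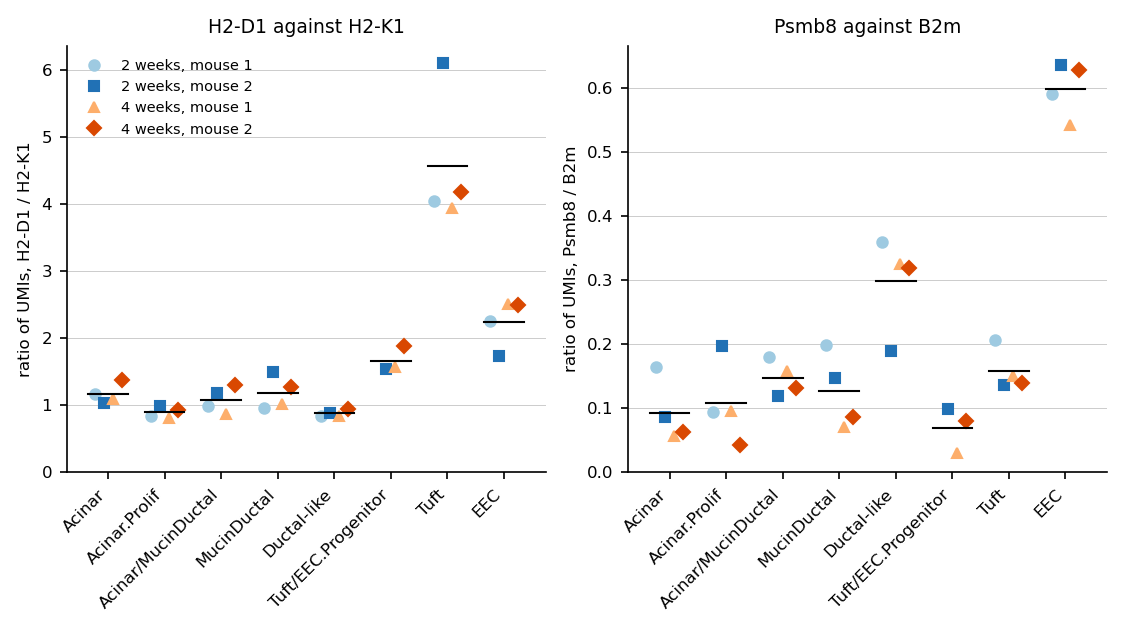
Ratio of H2-D1 to H2-K1 UMIs and of Psmb8 to B2m UMIs by deposited cell type; each point is a mouse and each bar the mean over mice. Tuft cells lie above the other types in the first panel (3.94 to 6.10), and EEC cells in the second (0.542 to 0.636).

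For peptide supply the leading type depended on the scale. Psmb8, a catalytic subunit that replaces its constitutive counterpart in the immunoproteasome, was by level highest in Ductal-like cells in 4 of 4 mice, at 363, 60.1, 91.7 and 159 CPM. Ductal-like cells also led for Tap1 in 4 of 4 mice and for Tapbp in 3 of 4. Psmb8 stood at 141, 53.5, 57.1 and 68.9 CPM in EEC cells and at 56.8, 17.2, 30.4 and 32.8 CPM in Tuft cells. EEC cells held more Psmb8 than Tuft cells in 4 of 4 mice although their B2m, at 238, 84.1, 105 and 110 CPM, was lower than that of Tuft cells (274, 126, 202 and 235 CPM) in 4 of 4. Psmb8 UMIs per B2m UMI were 0.590, 0.636, 0.542 and 0.628 in EEC cells, above all other types in every mouse. Ductal-like cells, at 0.360, 0.190, 0.326 and 0.318, followed in 3 of 4 mice, with Acinar.Prolif cells ahead of them in 2-week mouse 2 (0.197). The hormone-bearing EEC subtypes carried this ratio: Delta (Sst+) cells gave 0.691, 0.776, 0.686 and 0.657 and Epsilon (Ghrl+) cells 0.682, 0.969, 0.606 and 0.632. EEC-Progenitor (Neurog3+) cells gave 0.268, 0.172, 0.206 and 0.262, below the Delta and Epsilon subtypes in 4 of 4 mice.

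Psme1, Psme2, Psmb9 and Tapbp also stood high against B2m in EEC cells. Psme1 and Psme2, which encode the proteasome activator PA28, read 1.18, 2.55, 1.97 and 1.92 and at 0.804, 1.91, 1.42 and 1.71 UMIs per B2m UMI in EEC cells. Psmb9, another immunoproteasome subunit, stood at 0.220, 0.242, 0.173 and 0.237. EEC cells had the highest value of Psme1 and of Psme2 among the 7 types in 4 of 4 mice, and of Psmb9 in 3 of 4, with Ductal-like cells above them in 4-week mouse 1 (0.186). Tapbp per B2m was likewise highest in EEC cells in every mouse (0.421, 0.920, 0.595 and 0.673). Not every gene of peptide supply did so: Psmb10, an immunoproteasome subunit too, read 0.449 to 0.786 per B2m UMI in EEC cells and 3.38 to 8.81 in Acinar cells. Psmb10 neighbours the acinar enzyme gene Ctrl, which stood at 7398 to 10650 CPM in Acinar and 266 to 532 CPM in EEC cells. The part of Ctrl transcripts in the Psmb10 counts was not tested. Tap2 per B2m was highest in EEC cells in 3 of 4 mice. The low B2m of EEC cells enters all these ratios: per H2-K1 UMI, EEC cells led for Psme2 and Tapbp in 4 of 4 mice, for Psme1 in 3, for Psmb9 in 1 and for Tap2 and Psmb10 in 0. By level, Tap1 stood lower in EEC than in Tuft cells: at 13.8, 3.16, 2.63 and 5.04 CPM, EEC cells had less Tap1 than Tuft cells (18.1, 5.15, 10.2 and 10.9 CPM) in 4 of 4 mice.

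The mice differed from each other across cell types. Tap1 in MucinDuctal cells was 24.9, 5.77, 7.41 and 7.63 CPM and in Acinar cells 17.2, 1.73, 1.19 and 1.57 CPM. In all 7 types 2-week mouse 1 had the highest Tap1, by 1.66-fold to 9.98-fold over the next mouse (median 2.74), and the highest Tapbp, by 1.10-fold to 2.03-fold. It also led for B2m and for Psmb8 in 6 of 7 types. The pattern reached cells without a deposited type: among 9 classes measured in each mouse, 2-week mouse 1 led for Tapbp in 8 and for Tap1 in 7.

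The other 2-week mouse stood at the opposite end for the heavy chains. H2-K1 in 2-week mouse 2 was lowest in 7 of 7 types and in 7 of 9 classes without a type, and H2-D1 was lowest in 7 of 7 and 9 of 9. In MucinDuctal cells H2-K1 read 646, 149, 452 and 425 CPM and H2-D1 617, 221, 459 and 542 CPM. B2m did not follow as far: the H2-K1 to B2m ratio of that mouse was 0.634 in Acinar and 0.720 in MucinDuctal cells, while the other mice lay at 0.936 or above in Acinar and 1.44 or above in MucinDuctal cells. The 2 mice of the 2-week group thus bracketed both 4-week mice for several class I members. CD-1 is outbred, MHC haplotypes were not analysed here, and the part of allelic differences in read mapping was not tested.

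**Figure D3:**
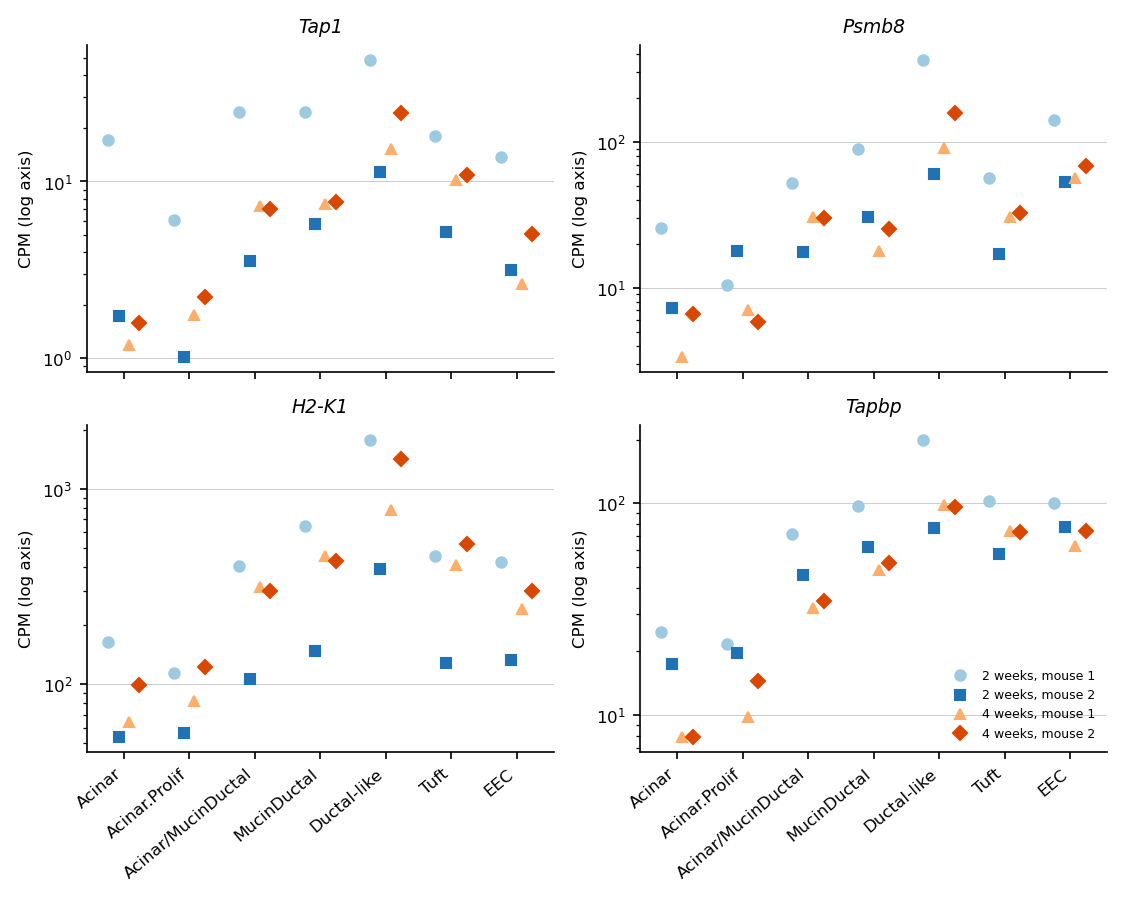
CPM of Tap1, Psmb8, H2-K1 and Tapbp on log axes by deposited cell type, with 1 point per mouse. 2-week mouse 1 is the highest point for Tap1 and Tapbp in all 7 types, and 2-week mouse 2 the lowest for H2-K1 in all 7.

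Class II RNA was low in the deposited types and high in immune cells of the same sort. Cd74 was 18116, 16931, 20939 and 17063 CPM in macrophage-like cells and 15463, 14173, 13823 and 13503 CPM in B cell-like cells. In Acinar cells it was 31.6, 36.0, 16.2 and 14.02 CPM, in MucinDuctal cells 146, 85.1, 38.6 and 65.3 CPM and in Acinar/MucinDuctal cells 134, 86.4, 326 and 297 CPM. Ductal-like cells carried the most in 3 of 4 mice, at 709, 291, 89.5 and 694 CPM. H2-Aa and H2-Ab1 were also highest, on average, in Ductal-like cells (83.4 ± 50.2 and 78.9 ± 47.1 CPM). Acinar/MucinDuctal cells came next (64.5 and 74.9 CPM), and for H2-Ab1 Ductal-like cells exceeded them in 2 of 4 mice. The order below differed: by mean, MucinDuctal cells held rank 3 of the 7 types for Cd74 (83.7 CPM). They held rank 6 for both H2-Aa (15.5 CPM) and H2-Ab1 (19.3 CPM). The 4 class II members summed to 609 ± 397 CPM in Ductal-like, 353 ± 203 in Acinar/MucinDuctal, 124 ± 77.9 in Tuft, 120 ± 68.6 in MucinDuctal, 111 ± 58.1 in Acinar.Prolif, 108 ± 75.7 in EEC and 39.8 ± 15.9 CPM in Acinar cells. Acinar/MucinDuctal cells exceeded Tuft cells, and EEC cells exceeded Acinar cells, in 4 of 4 mice; Tuft, MucinDuctal, Acinar.Prolif and EEC cells could not be ordered, since neighbours held their place in at most 2 of 4 mice. The order changed when cells with a UMI of any of 40 immune marker genes were left out. That setting removed unequal parts of the types: 66.7% of Acinar, 50.9% of Acinar/MucinDuctal, 48.4% of Tuft, 43.6% of EEC and 38.0% of MucinDuctal cells. In Acinar cells T cell markers, at 32.3, 33.4, 23.4 and 24.8 CPM, stood above macrophage markers (21.8, 28.6, 12.9 and 10.6 CPM). The part of this unequal removal in the new order was not tested. Class II then averaged 153 CPM in Acinar/MucinDuctal, 77.2 in MucinDuctal, 38.2 in Acinar, 34.6 in EEC and 19.7 CPM in Tuft cells. EEC cells then exceeded Acinar cells in 2 of 4 mice and Tuft cells lay below Acinar cells in 4 of 4, while Acinar/MucinDuctal cells still exceeded Tuft cells in 4 of 4. Ductal-like cells kept 11 to 18 cells per mouse in that setting, too few to be compared.

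Against class I, class II was the smaller sum in every epithelial type and mouse, though by unequal margins. UMIs of class II per UMI of class I were at most 0.788 in the types, reached in Acinar.Prolif cells of 2-week mouse 2, where 1 of 104 cells held 77.7% of the class II UMIs and at least 10 immune marker UMIs, and 3.51 to 6.08 in macrophage-like and 5.01 to 7.78 in dendritic cell-like cells. Acinar/MucinDuctal cells led the types in the 4-week mice, at 0.648 and 0.495, and Acinar.Prolif cells gave 0.474 in 4-week mouse 1. In author cluster 3 of Acinar/MucinDuctal cells, by the deposited cluster numbers, class II exceeded class I in 4-week mouse 1 (913 and 670 CPM). It stood below class I in the other mice of that cluster. Ciita was 225, 220, 204 and 184 CPM in B cell-like cells. It was 5.33, 1.21, 0.390 and 0.60 CPM in MucinDuctal and 3.43, 1.03, 2.01 and 2.44 CPM in Acinar/MucinDuctal cells. The transcripts of this coactivator were thus far scarcer than in B cell-like cells in each mouse, and in Acinar, Acinar.Prolif, Tuft and EEC cells no mouse exceeded 1.48 CPM.

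Free RNA from lysed cells reaches every droplet, so the class II levels were set beside cells that normally make little class II. T cell-like cells held 174, 60.5, 34.3 and 99.3 CPM of Cd74 and fibroblast-like cells 173, 208, 179 and 78.1 CPM. The range of those 2 classes was taken over all 4 mice. On the CPM scale the Cd74 levels of Acinar, Acinar.Prolif, Tuft, MucinDuctal and EEC cells lay within or under it. So did those of Acinar/MucinDuctal cells at 2 weeks. Within 4-week mouse 2 alone, Tuft cells (108 CPM) lay above both classes, with 91.7% of their class II UMIs in 2 cells. The Acinar/MucinDuctal cells at 4 weeks and the Ductal-like cells of 3 mice lay above the range over all 4 mice. That range was itself carried by few cells: 1 to 3 fibroblast-like cells per mouse held 62.4%, 89.9%, 89.4% and 85.9% of the class II UMIs of their class, and 2 T cell-like cells of 2-week mouse 1 held 68.5%. Counted as UMIs per cell, which grow with depth, the order was another: Cd74 averaged 0.341 in T cell-like and 1.41 in fibroblast-like cells. Means were 0.818 in Acinar, 0.834 in EEC, 1.37 in Tuft, 1.87 in Acinar.Prolif and 1.90 in MucinDuctal cells, each above that of T cell-like cells. Shares of cells with a UMI were compared after each cell was thinned to 1500 UMIs. Cd74 was then present in 6.96% ± 2.33 of T cell-like and 4.44% ± 2.00 of fibroblast-like cells. The share was 3.98% ± 1.33 in Acinar, 5.16% ± 1.16 in Acinar.Prolif, 2.49% ± 0.459 in Tuft and 3.29% ± 1.12 in EEC cells, each mean below that of T cell-like cells. It was 24.98% ± 4.88 in Acinar/MucinDuctal and 25.9% ± 9.95 in Ductal-like cells. MucinDuctal cells, at 7.51% ± 3.85, overlapped T cell-like cells. B2m, which T cells make in quantity, was found at the same depth in 87.4% of T cell-like, 34.1% of MucinDuctal, 25.3% of Tuft, 15.6% of EEC and 13.4% of Acinar cells. Without thinning the mean shares were 36.7% in Acinar, 47.9% in Acinar/MucinDuctal and 17.0% in Tuft cells, and the share in T cell-like cells ran from 9.74% to 17.3%. Those unthinned shares cannot be compared directly, because median depth was 24008 to 32664.5 UMIs in Acinar, 2659 to 19556 in Acinar/MucinDuctal, 14809 to 20481 in Tuft and 3023 to 4037 in T cell-like cells. Depth enters the CPM and the thinned shares as well. If droplets hold like amounts of free RNA, it makes up a smaller part of the UMIs of deeper cells. Where a type deeper than T cell-like cells reads at or under them, neither scale can then decide whether it lies above the background. Ductal-like cells, deeper at medians of 8889 to 38505.5 UMIs, had a higher Cd74 CPM in each mouse and a higher mean thinned share. The part of doublets in these readings was not tested. Thinning left out 277 of 1955 Acinar/MucinDuctal cells (14.2%), 22 of 568 T cell-like cells and at most 32 cells of another type.

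The share of class II RNA that lay in cells of high class II differed between types. Cells with at least 10 UMIs of Cd74, H2-Aa and H2-Ab1 together numbered 163 of 3983 MucinDuctal, 120 of 1955 Acinar/MucinDuctal, 43 of 3698 Acinar, 35 of 139 Ductal-like, 12 of 1208 EEC and 10 of 1280 Tuft cells. In Tuft cells 1 to 5 cells per mouse held 88.6%, 76.0%, 46.2% and 91.7% of all class II UMIs. In Acinar cells 4 to 23 cells per mouse held 25.9%, 43.8%, 15.5% and 21.8%, so most class II UMIs there lay in cells with fewer. Each of those 10 Tuft cells also held a UMI of at least 1 of 40 immune marker genes, and 8 of the 10 held at least 10 such UMIs, while 48.4% of all Tuft cells held 1 or more. In Acinar/MucinDuctal cells 107 of their 120 high cells held an immune marker UMI and 61 held at least 10, against 50.9% of all cells of the type with 1 or more. In MucinDuctal cells 67 of 163 high cells (41.1%) held no immune marker UMI and 17 held at least 10, while 62.0% of all MucinDuctal cells held none. Since the cut is on raw UMIs, deeper cells pass it more easily: the Acinar/MucinDuctal high cells with at least 10 immune marker UMIs had median depths of 6251 and 10238 UMIs in the 4-week mice, against 2152 and 2614 in cells of the type with no class II UMI. No doublet caller was run, and the part of doublets and captured debris in these cells was not tested.

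**Figure D4:**
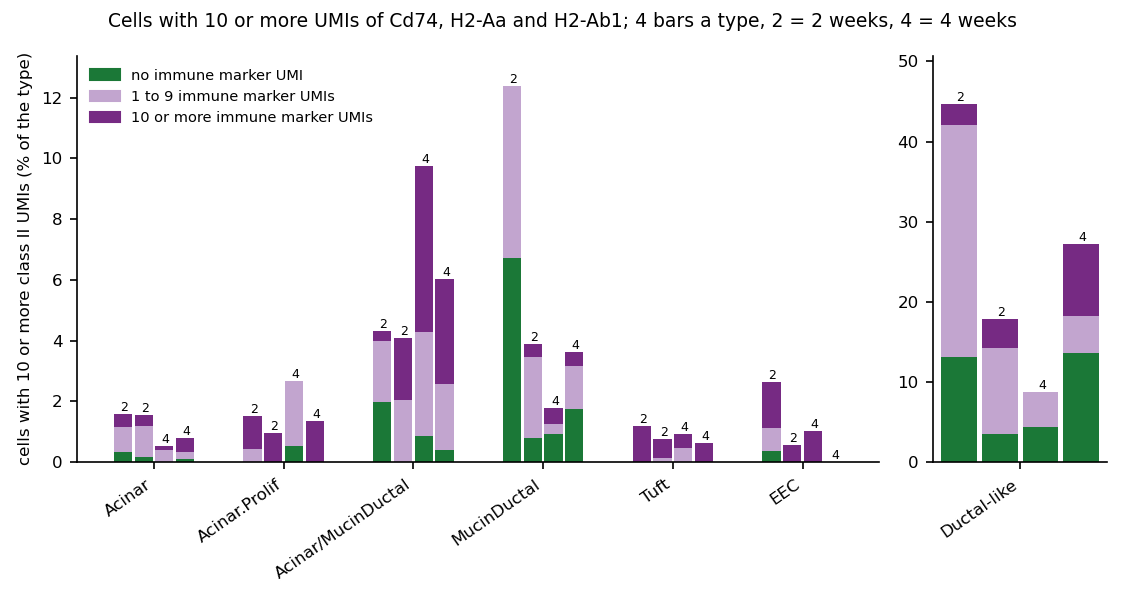
Share of cells (percent of the type in that mouse) with at least 10 class II UMIs, 1 bar per mouse, with Ductal-like cells on an axis of their own, split by how many immune marker UMIs the same cell holds. High cells with no immune marker UMI number 67 of 163 in MucinDuctal and 11 of 35 in Ductal-like cells (31.4%, where 38.8% of all Ductal-like cells hold none), and the 10 high Tuft cells include none.

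The proportion of class II to macrophage RNA was compared next, since a single source of free RNA keeps its genes in a fixed ratio. UMIs of Cd74, H2-Aa and H2-Ab1 per UMI of 10 macrophage markers were 1.25, 0.745, 1.01 and 0.910 in macrophage-like cells, and 2.11, 1.21, 1.73 and 1.67 in macrophage-, dendritic cell- and B cell-like cells pooled. Acinar/MucinDuctal cells gave 3.76, 1.68, 2.22 and 1.83 and EEC cells 1.84, 1.94, 1.17 and 1.32. MucinDuctal cells gave 16.3, 3.61, 2.28 and 3.34, and Ductal-like cells 7.38, 7.36, 3.72 and 4.58. Of the class II UMIs of Ductal-like cells, 1 of 56 cells held 61.7% in 2-week mouse 2 and 1 of 22 cells held 44.1% in 4-week mouse 2. These 2 types lay above the pooled immune cells of the same mouse in 4 of 4 mice. So did Acinar/MucinDuctal cells and Acinar cells (2.49, 1.82, 2.21 and 2.25), both under MucinDuctal cells in 4 of 4 mice, whereas EEC cells did in 1 of 4. Macrophage-like cells held 86186 of 91560, 106681 of 109121, 80884 of 86085 and 58303 of 61941 macrophage marker UMIs of that pool. They held 107582 of 193633, 79443 of 132037, 82019 of 148558 and 53046 of 103492 of its class II UMIs. Dendritic cell- and B cell-like cells alone thus had a higher ratio than the pool, which is no upper limit for immune RNA. The mix of immune sources in each type was not tested. Tuft cells gave 1.54, 1.14, 2.79 and 14.5, where the last value rests on the 2 cells that held 91.7% of the class II UMIs of that mouse, and Acinar.Prolif cells 2.10, 4.53, 6.61 and 0.858. The 4.53 rests on the 1 cell that held 77.7% of the class II UMIs, and the 6.61 on 5 cells that held 68.8%. The Tuft value of 1.54 rests on 1 cell with 88.6%. Of the class II UMIs of EEC cells, 7 cells held 79.4% in 2-week mouse 1 and 3 cells held 86.2% in 4-week mouse 1. In 2-week mouse 2, 2 EEC cells held 44.9%. In 4-week mouse 1 the ratios of MucinDuctal, Acinar/MucinDuctal and Acinar cells were alike (2.28, 2.22 and 2.21).

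MucinDuctal cells with class II but no immune marker UMI also carried more class I. In 2-week mouse 1, 25 such cells were set beside 148 MucinDuctal cells with no class II UMI at nearly equal depth (median 17964 and 18000.5 UMIs). The class I members summed to 3979 CPM in the former and 1383 CPM in the latter, Psmb8 stood at 338 and 28.5 CPM, and Tap1 at 65.9 and 11.9 CPM. Ciita had a UMI in 4 of the 25 cells (16.0%, 95% Clopper-Pearson interval 4.54% to 36.1%) and in 2 of the 148 (1.35%, 0.164% to 4.80%). In 4-week mouse 2, 22 such cells stood beside 826 cells, with 2763 and 1241 CPM of class I, 84.1 and 17.4 CPM of Psmb8, and Ciita in 1 and 2 cells. The 9 mucin and ductal markers were lower in the class II-high cells, at 36697 against 61928 CPM in 2-week mouse 1 and 21270 against 55722 CPM in 4-week mouse 2. The acinar markers were higher, at 17735 against 9475 CPM and 13288 against 7118 CPM. Their part in the class I values was not tested. The comparison pools author clusters 1 and 2 of MucinDuctal cells, which differed in both classes. In 2-week mouse 1 they held 2850 and 1597 CPM of class I, 516 and 111 of class II and 209 and 47.1 of Psmb8. In 4-week mouse 2 the values were 1449 and 1263, 142 and 54.1, and 42.8 and 12.2 CPM. The part of cluster membership was not tested. Both mice thus showed more class I and more Psmb8 in the class II-high cells; the Ciita intervals of 2-week mouse 1 overlapped slightly. The intervals cover counting error only, cells of 1 mouse are not replicates, and the other 2 mice had 11 and 9 such cells, too few to be described.

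Between 2 and 4 weeks of caerulein, no member passed the threshold in any of the 7 types. The test was edgeR's quasi-likelihood test on counts summed per mouse and type, with Benjamini-Hochberg adjustment over all genes of a type at 0.05. An SE given with an edgeR log2 change is its absolute value divided by the square root of the test's F statistic. It was not estimated separately and is not the spread between mice. Of the 10 members, 10 passed the filter on low counts in Acinar/MucinDuctal and MucinDuctal cells and 9, without Ciita, in the other 5 types. Adjusted calls over all genes were 0% of those tested in 6 types and 0.00995% in Acinar.Prolif cells. At an unadjusted p under 0.05, 3 members were found in Acinar cells (2.79% of all genes), 2 in Acinar.Prolif (2.45%), 3 in Acinar/MucinDuctal (3.42%), 3 in MucinDuctal (5.39%) and 0 in Ductal-like (5.27%), Tuft (6.74%) and EEC cells (4.03%). DESeq2 called 2 members, Cd74 and H2-Aa, in Acinar/MucinDuctal cells and 0 in the other 6 types. As a share of all genes with a count, DESeq2 called 0.107% there, 0.22% in MucinDuctal, 0.163% in Tuft, 0.0882% in Acinar, 0.0732% in EEC, 0.0118% in Acinar.Prolif and 0.00602% in Ductal-like cells.

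On the CPM scale Cd74, H2-Aa and H2-Ab1 pointed upward in Acinar/MucinDuctal cells, while class II members pointed downward in MucinDuctal cells. CPM was scaled by TMM factors, which correct for library composition; in Acinar cells they moved the median log2 change of all genes from -0.37 to -0.02. Cd74 on this scale was, in Acinar/MucinDuctal cells, 129, 85.5, 319 and 323, with both 4-week mice above both 2-week mice. Its log2 change was 1.59 (SE 0.229, adjusted p = 0.139 by edgeR), and that of H2-Aa was 1.84 (SE 0.275, adjusted p = 0.245 by edgeR) from 37.0, 21.0, 101 and 104 CPM. H2-Ab1 read 61.2, 16.7, 119 and 106 CPM, again without overlap, with a log2 change of 1.57 (SE 0.754, adjusted p = 0.999 by edgeR). These 3 of 4 class II members lay above in Acinar/MucinDuctal cells, where 16% of all genes did, with a median log2 change of 1.58 over the 4 against -0.01 over all genes. Ciita overlapped between the times there, at 3.43, 1.03, 2.01 and 2.44 CPM without TMM factors. Its log2 change lay between -0.46 and 1.21 with a mouse left out. As UMIs per cell the times overlapped: Cd74 read 1.56, 2.57, 2.33 and 1.92, H2-Ab1 0.741, 0.502, 0.868 and 0.629, and the 4 members together 2.79, 3.73, 3.94 and 3.19. Median depth in these cells was 3387, 19556, 2659 and 3555 UMIs, so 2-week mouse 2 stood apart, and the part of depth was not tested. The summed macrophage markers of the same cells went from 62.8 and 74.0 to 248 and 267 CPM, and the B cell markers from 4.85 and 6.77 to 55.5 and 27.5 CPM; their part in the class II values was not tested. With the cells that hold an immune marker UMI left out, 8 members passed the filter in Acinar/MucinDuctal cells and 0 were called, against 0.0242% of all genes. The class II sum of the cells that remained, 234, 50.8, 202 and 127 CPM, overlapped between the times. The edgeR calls depended on single mice: Cd74 passed without 2-week mouse 1 (adjusted p = 0.00238) and without 2-week mouse 2 (adjusted p = 0.0243) and not without either 4-week mouse. H2-Aa behaved alike (adjusted p = 7.92e-04 and 0.00940), and H2-Ab1 passed without 2-week mouse 1 alone (adjusted p = 3.32e-04).

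In MucinDuctal cells Cd74 was 143, 79.9, 40.5 and 67.6 CPM on the same scale, with both 4-week mice below both 2-week mice. Its log2 change was -1.04 (SE 0.392, adjusted p = 0.824 by edgeR). H2-Aa went from 25.9 and 14.9 to 9.13 and 11.3 CPM and Ciita from 5.23 and 1.14 to 0.409 and 0.622 CPM, both without overlap; their log2 changes were -0.98 (SE 0.313) and -2.52 (SE 0.883), each with an adjusted p of 0.824 by edgeR. Below was the position of 3 of the 4 class II members in MucinDuctal cells and of 18.4% of all genes, with a median of -1.01 against -0.01 over all genes. Macrophage markers in these cells stood at 13.0, 31.8, 25.001 and 27.2 CPM, with no separation of the groups, and B cell markers at 2.09, 19.3, 4.90 and 3.69 CPM. Without the cells that hold an immune marker UMI, the class II sum of MucinDuctal cells was 156, 53.5, 39.8 and 59.5 CPM and overlapped between the times. By the deposited cluster numbers this type holds 2 author clusters. Cluster 1 had 113, 1138, 228 and 551 cells and cluster 2 had 258, 250, 733 and 712. Cd74, here without TMM factors, was 360, 96.8, 113 and 107 CPM in cluster 1. In cluster 2 it was 70.1, 34.6, 22.4 and 34.8 CPM, and in each cluster the times overlapped. The part of the mix of clusters was not tested. Of the class I members in MucinDuctal cells, Psmb8 (87.7, 28.5, 18.9 and 26.1 CPM; log2 change -1.35, SE 0.574, adjusted p = 0.824 by edgeR) and Tapbp lay below at 4 weeks; Psmb8 passed the threshold without 2-week mouse 2 (log2 change -1.95, adjusted p = 0.0245).

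The difference between the time changes of these 2 types was tested directly, with the mouse as a block. Of 13022 genes, 19 were called by edgeR (0.146%), every one more upward in Acinar/MucinDuctal cells, and 4 of the 19 were members. At an unadjusted p under 0.05 it was 5 of the 10 members and 5.52% of all genes. The interaction was 2.83 for H2-Aa (log2, SE 0.170, adjusted p = 1.41e-05 by edgeR), 2.62 for H2-Ab1 (SE 0.243, adjusted p = 0.00464), 2.64 for Cd74 (SE 0.239, adjusted p = 0.0110) and 1.23 for Psmb8 (SE 0.178, adjusted p = 0.0166). H2-Eb1, the beta chain of the second class II molecule I-E, was called too (2.55, adjusted p = 1.02e-04 by edgeR). Ciita had 2.58 (SE 0.714, adjusted p = 0.449 by edgeR), and B2m, H2-K1, H2-D1, Tap1 and Tapbp lay between -0.17 and 0.21. Of the remaining 14 genes, 2 were immune markers, the macrophage complement gene C1qb and the B cell gene Ms4a1, and 12 stood in none of the fixed lists. With the cells that hold an immune marker UMI left out, H2-Aa was still called (1.90, adjusted p = 0.0260 by edgeR), while Cd74 (1.27, adjusted p = 0.965), H2-Ab1 (1.39, adjusted p = 0.403) and Psmb8 (0.66, adjusted p = 0.947) were not. Leaving out 2-week mouse 2 lost the call of Cd74 (adjusted p = 0.394), and leaving out either 4-week mouse lost that of Psmb8.

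**Figure D5:**
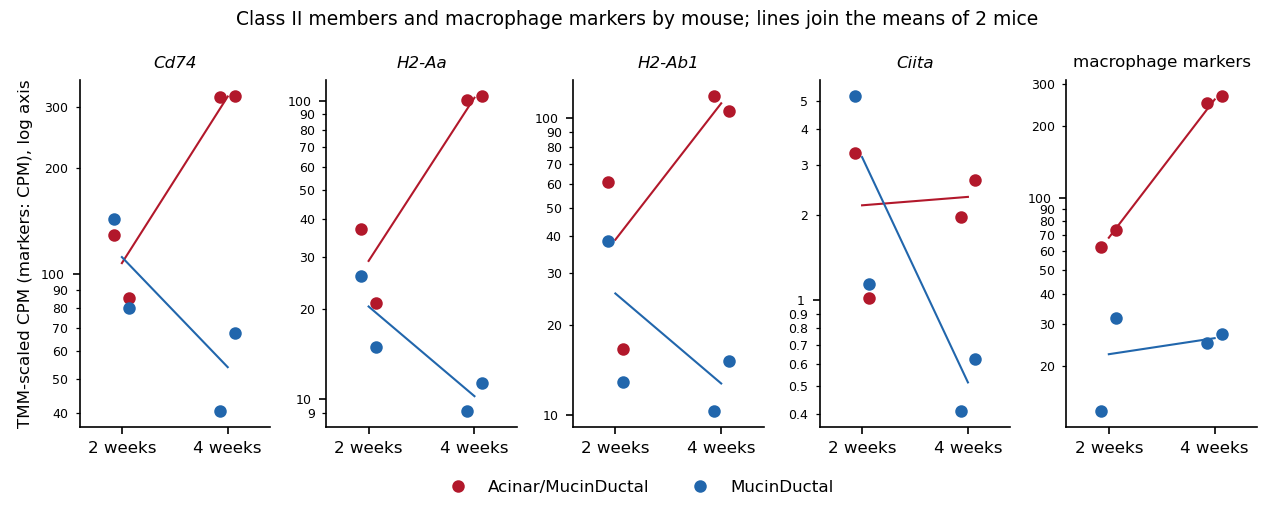
TMM-scaled CPM of the 4 class II members, and CPM of 10 macrophage markers, on log axes in Acinar/MucinDuctal and MucinDuctal cells at 2 and 4 weeks; each point is a mouse and lines join the means. On this CPM scale Cd74, H2-Aa and H2-Ab1 lie higher at 4 weeks in Acinar/MucinDuctal cells, whose UMIs per cell overlap between the times, and the macrophage markers of those cells do as well (62.8 and 74.0 against 248 and 267 CPM).

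For class I the direction of the time change depended on which 2-week mouse was kept. In EEC cells H2-K1 had a log2 change of 0.01 over all 4 mice, of 1.17 without 2-week mouse 1 (adjusted p = 1.19e-05 by edgeR) and of -0.62 without 2-week mouse 2 (adjusted p = 0.00919). Over the 42 tests of class I members in the 7 types, 13 were called without 2-week mouse 1, every one higher at 4 weeks, and 15 without 2-week mouse 2, every one lower at 4 weeks. These are 31.0% and 35.7% of the tests, where 0.816% of all genes in the 7 types were called higher in the first setting and 0.731% lower in the second. The count was 0 without 4-week mouse 1 (0.0665% of all genes called) and without 4-week mouse 2 (0.0289%), as with all 4 mice. H2-D1 in Tuft cells changed by 0.54 (adjusted p = 0.961 by edgeR) over all mice and by 1.27 (adjusted p = 0.00534) without 2-week mouse 1. In these fits the lone 2-week mouse is assumed to vary like the 4-week mice. Tapbp was the class I member with the most regular direction: it lay lower at 4 weeks, without overlap, in Acinar cells (log2 change -1.003, SE 0.285, adjusted p = 0.998 by edgeR), Acinar.Prolif (-0.63, SE 0.242), Acinar/MucinDuctal (-0.71, SE 0.234) and MucinDuctal cells, none past the adjusted threshold. Without 2-week mouse 2 it passed in Acinar (-1.34, adjusted p = 0.0191 by edgeR), Acinar.Prolif (-0.83, adjusted p = 0.0275), Ductal-like (-0.99, adjusted p = 0.0288) and EEC cells (-0.53, adjusted p = 0.0467). Genes below without overlap made up 15% of all genes in Acinar.Prolif, where 2 of 6 class I members were below, and 16.5% in Acinar/MucinDuctal cells, where 1 was. In Acinar cells 1 of 6 class I members and 2 of 3 tested class II members lay below, against 17.2% of all genes.

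The wider pathway gave no adjusted call in any type. Over all genes, the share higher at 4 weeks at an unadjusted p under 0.05 was 0.729% in Acinar, 1.12% in Acinar.Prolif, 2.07% in Acinar/MucinDuctal, 2.32% in both MucinDuctal and Ductal-like cells, 3.71% in Tuft cells and 1.76% in EEC cells. The share lower was 2.06%, 1.32%, 1.34%, 3.08%, 2.95%, 3.03% and 2.27% in the same order. Of 18 other class I genes, such as Tap2, Psmb9 and H2-T23, between 15 and 18 were tested per type, and over the 118 tests 2 were higher and 2 lower at 4 weeks at an unadjusted p under 0.05. Of 17 other class II genes, over 71 tests, 7 were higher and 4 lower. In Acinar/MucinDuctal cells 4 of the 11 tested class II genes were higher and 0 lower, led by H2-Eb1 (log2 change 1.15, adjusted p = 0.465 by edgeR), while in MucinDuctal cells H2-Eb1 had -1.38 (adjusted p = 0.824). Interferon gamma signalling, 10 genes with 55 tests, had 0 higher and 3 lower, among them the guanylate-binding protein gene Gbp2 in MucinDuctal cells (log2 change -3.48, adjusted p = 0.824 by edgeR). Among the other class I genes the smallest p belonged to Psme1 in Acinar (log2 change -0.45), Psmb9 in Acinar.Prolif (-0.82), Tap2 in Acinar/MucinDuctal (-0.51), Pdia3 in MucinDuctal (0.41), Calr in Ductal-like (-0.73), H2-Q7 in Tuft (1.61) and Cd1d1 in EEC cells (0.63). Among the other class II genes it belonged to H2-Eb1 in Acinar (-1.06), Rfxank in Acinar.Prolif (-0.55) and in Ductal-like (1.11), Lgmn in Tuft (-0.88) and Ctsl in EEC cells (0.44). For interferon gamma signalling it was Irf1 in Acinar (-1.11) and in Ductal-like (-0.88), Ifngr2 in Acinar/MucinDuctal (0.44), Jak1 in Tuft (-0.13) and Jak2 in EEC cells (0.20). None of these genes had an adjusted p by edgeR under the 0.463 of Lgmn.

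Genes whose level followed the members were sought over 28 points, 7 types in 4 mice, among 7964 genes. The points share libraries and depth, so the coefficients are descriptions. Class I was followed most closely by other heavy chains, H2-T23 (Pearson r 0.96), H2-T22 (0.95) and H2-Q4 (0.93), together with Hint2 (0.94), a mitochondrial nucleotide hydrolase, and Parp9 (0.93), an interferon-inducible ADP-ribosyltransferase family member. Class II was followed by H2-Eb1 (0.88), the leucocyte surface gene Cd52 (0.83), AW112010 (0.80), the lipoprotein gene Apoe (0.80), which macrophages also express, and the signalling adaptor Traf2 (0.75).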

How the data were processed

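Single-cell RNA counts of EYFP+ cells sorted from 4 caerulein-treated pancreata were analysed, with 2 mice at 2 weeks and 2 at 4 weeks. The deposited values were UMI counts per gene and cell, with the authors' cell type labels in separate tables. Per the submitters' processing notes the tools were Cell Ranger 4.0.0 and Seurat 3.2.3 and the build mm10; the role of each step, cell filters and doublet removal are not given in the sources used here. The smallest cell held 1000 UMIs.

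Counts were summed per mouse and type. Types with at least 20 cells in each mouse were tested with edgeR 4.0.16 in R 4.3.3 (glmQLFit, robust, TMM, filterByExpr), a test that was first tried on simulated data, with DESeq2 1.42.0 as an alternative. The mouse was the replicate, and the labels give each mouse its own identifier. Cells without a type were clustered (leidenalg 0.10.2) and named from fixed markers. Cells were thinned to 1500 UMIs by hypergeometric expectation. Intervals are 95% Clopper-Pearson. Promoters came from RefSeq, GRCm38.p6. The members, the pathway lists, the tests and the rule for named genes were chosen with earlier results of these data known. That rule names all members, genes of the pathway lists past the adjusted threshold or with the smallest p of a list in a type, and the 5 genes most like each class. H2-Q6, Psme2, Psmb10, Ctrl, C1qb and Ms4a1 were named, and the ratios between members chosen, after their values were seen. Alternatives were DESeq2, no filter, a fit that is not robust, enzymes left out, cells under 3000 UMIs or with an immune marker left out, and each mouse left out. 1 gene named by that rule is not reported here.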

Additional observations from a re-analysis of the deposited data

Results flagged for a closer look

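The time changes of Acinar/MucinDuctal and MucinDuctal cells differed, by the direct test of that difference with the mouse as a block, for 4 members. The log2 difference was 2.83 for H2-Aa, 2.62 for H2-Ab1, 2.64 for Cd74 and 1.23 for Psmb8. Over the same span the macrophage markers summed to 62.8 and 74.0 CPM at 2 weeks and to 248 and 267 CPM at 4 weeks in Acinar/MucinDuctal cells, against 13.0 and 31.8 and then 25.001 and 27.2 CPM in MucinDuctal cells. B cell markers in Acinar/MucinDuctal cells stood at 4.85 and 6.77 and then at 55.5 and 27.5 CPM, and in MucinDuctal cells at 2.09 and 19.3 and then at 4.90 and 3.69 CPM. As UMIs per cell the Cd74 values of Acinar/MucinDuctal cells overlapped between the times (1.56 and 2.57, then 2.33 and 1.92), and their median depth was 3387 and 19556, then 2659 and 3555 UMIs. The part of the markers, of depth and of the mix of author clusters in the difference was not tested. Without the cells that hold an immune marker UMI the difference of H2-Aa was 1.90 and was still called, while Cd74 (1.27), H2-Ab1 (1.39) and Psmb8 (0.66) were not. Psmb8 also lost its call with DESeq2 and without either 4-week mouse, and Cd74 without 2-week mouse 2.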

How the results depend on the processing

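No paired analysis was possible because the 2-week and 4-week mice are different animals whose numbers follow accession order only. The counts of genes called for time, 0 in 6 types and 1 in Acinar.Prolif cells, were among the least stable values. DESeq2 called 17 in Acinar, 2 in Acinar.Prolif, 20 in Acinar/MucinDuctal, 45 in MucinDuctal and 1 in Ductal-like cells, and 30 and 14 in Tuft and EEC cells. No filter on low counts gave 286, 51, 128, 6, 81, 266 and 74 in the same order. Leaving out cells with an immune marker UMI gave 4 in Acinar, 0 in Acinar.Prolif, 2 in Acinar/MucinDuctal and 16 in Tuft cells. The fit that is not robust gave 0 in Acinar.Prolif cells, and leaving out cells under 3000 UMIs gave 13 in Acinar/MucinDuctal cells. Leaving out each mouse in turn gave 13 to 129, 5 to 143, 0 to 122, 0 to 191, 0 to 230, 5 to 273 and 0 to 366 in that order. The interaction count of 19 became 177 with no filter and 10 to 454 with a mouse left out. The alternatives for ratios were chosen after seeing the data. The cause was not tested.

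In Acinar/MucinDuctal cells the change of Cd74 passed the threshold with DESeq2 (1.58), with no filter (1.57) and without cells under 3000 UMIs (1.73), and that of H2-Aa likewise (1.83, 1.83 and 2.13). With no filter Tapbp passed in Acinar (-0.99) and Acinar/MucinDuctal cells (-0.73), and Tap1 (-2.48) and Psmb8 (-1.39) in Acinar cells. With a mouse left out, Cd74 in Acinar/MucinDuctal cells lay between 1.32 and 1.91, H2-Aa between 1.47 and 2.28, H2-Ab1 between 0.87 and 2.74 and Ciita between -0.46 and 1.21. Psmb8 in MucinDuctal cells lay between -1.95 and -0.33, and Tapbp between -1.34 and -0.48 in Acinar and between -0.88 and -0.32 in Acinar.Prolif cells. H2-K1 lay between 0.037 and 1.85 in Tuft and between -0.62 and 1.17 in EEC cells, and H2-D1 between 0.050 and 1.27 and between -0.47 and 1.70. Of the interactions, Psmb8 missed the threshold with DESeq2 (1.25). Without cells that hold an immune marker UMI, Psmb8 (0.66), Cd74 (1.27) and H2-Ab1 (1.39) missed it, and the uncalled values of H2-K1 (-0.056), H2-D1 (-0.057) and Tap1 (-0.066) changed sign. With a mouse left out, Psmb8 lay between 1.11 and 1.43, Cd74 between 2.32 and 3.01, H2-K1 between -0.11 and 0.18, H2-D1 between -0.13 and 0.35 and Tap1 between -0.067 and 0.54.

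Levels moved where the total or the cells changed. With enzymes out of the total, class I and class II stood at 763 and 86.8 CPM in Acinar and at 546 and 190 CPM in Acinar.Prolif cells. Without cells that hold an immune marker UMI, class II stood at 19.7 CPM in Tuft, 34.6 in EEC, 77.2 in MucinDuctal and 153 in Acinar/MucinDuctal cells, and EEC cells no longer lay above Acinar cells (38.2). In Acinar.Prolif cells 3 mice had enough cells, with class II at 46.5 CPM (84.5 with all cells of those mice) and an H2-D1 to H2-K1 ratio of 0.683. In Tuft/EEC.Progenitor cells 1 mouse did, with class I at 518 and class II at 16.0 CPM (512 and 76.5 with all its cells). A mean of each cell's own CPM gave 564 for class II in Acinar/MucinDuctal cells. Thinned to 3000 UMIs, B2m was found in 23.7% of Acinar, 23.9% of Acinar.Prolif, 45.4% of Acinar/MucinDuctal, 54.5% of MucinDuctal, 71.2% of Ductal-like, 43.5% of Tuft/EEC.Progenitor, 41.4% of Tuft and 27.1% of EEC cells, and Cd74 in 7.38%, 9.20%, 31.0%, 11.9%, 38.4%, 8.04%, 3.88% and 5.25%. Not thinned, the shares in that order were 77.2%, 76.7%, 63.5%, 94.8%, 90.2%, 88.7%, 85.1% and 64.1% for B2m and 36.7%, 44.8%, 47.9%, 34.8%, 75.6%, 28.2%, 17.0% and 15.9% for Cd74. Without cells that hold an immune marker UMI, the thinned Cd74 share was 12.8% in Acinar/MucinDuctal, 3.09% in Tuft/EEC.Progenitor (that 1 mouse) and 1.67% in Tuft cells. With 2 mice a group no exact test on single values can go below a two-sided p of 0.3333, and Ductal-like cells rest on as few as 22 cells in a mouse.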

Other observations

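Mesothelial-like cells, 111 cells without a deposited type, carried class II at a level between that of the epithelial types and that of immune cells. Their Cd74 stood at 1485, 2111, 2468 and 3388 CPM in 2-week mouse 1, 2-week mouse 2, 4-week mouse 1 and 4-week mouse 2, and their H2-Ab1 at 510, 116, 570 and 856 CPM. In each mouse more than 9 in 10 of these cells, 92.6% at the least, held a Cd74 UMI, at median depths of 7743 to 9896 UMIs. Of those with at least 10 class II UMIs, 17 of 21, 9 of 19, 16 of 30 and 13 of 21 held no immune marker UMI, and none held 10 or more such UMIs. Ciita stood at 22.5, 3.64, 6.99 and 7.96 CPM. Class I was also high, at 8571, 7652, 11635 and 13810 CPM for the 6 members, above all 7 tested epithelial types in each mouse.

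The balance of the second class II beta chain, H2-Eb1, against H2-Ab1 set 2-week mouse 2 apart in most cell groups. H2-Eb1 UMIs per H2-Ab1 UMI in that mouse were 1.57 in macrophage-like, 1.68 in dendritic cell-like and 1.49 in B cell-like cells. The other 3 mice had at most 0.436 in macrophage-like, 0.488 in dendritic cell-like and 0.760 in B cell-like cells. Epithelial types of that mouse gave 1.28 in Acinar and 1.11 in MucinDuctal cells, and that mouse was highest in all 7 tested types. Other groups went otherwise: in Epsilon (Ghrl+) cells that mouse was lowest at 0.200, in mucin/ductal-like cells without a type it gave 0.409 against 0.492 in 4-week mouse 1, and in T cell-like cells 1.56 against 4.40 in 4-week mouse 1.

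Psmb10, the remaining inducible subunit of the immunoproteasome, was higher in Acinar than in MucinDuctal cells in 4 of 4 mice, whereas Psmb8 was lower. It stood at 533, 363, 523 and 417 CPM in Acinar cells and at 62.9, 37.6, 26.2 and 34.4 CPM in MucinDuctal cells. Ctrl, the acinar enzyme gene that neighbours Psmb10 in the RefSeq gene table, stood at 10650, 7398, 10592 and 9279 CPM in Acinar and at 245, 66.1, 104 and 157 CPM in MucinDuctal cells. The part of Ctrl transcripts in the Psmb10 counts was not tested.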
